A study of Rattus norvegicus with 30 samples.

Results

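The EGF family genes described here were the ligands Areg, Ereg, Hbegf, Tgfa, Btc and Nrg1 and the receptors Egfr, Erbb2 and Erbb3, taken by their symbols from the count and FPKM tables of rat lung RNA-seq. These 9 genes were among 22914 with counts and 22907 with FPKM (fragments scaled by transcript length and by library size, a level that can be compared between genes). All 9 passed the filter on low counts, after which 15934 genes were tested.

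The study followed acute lung injury (ALI) in severe acute pancreatitis (SAP), and asked how emodin, a rhubarb anthraquinone, and dexamethasone (DEX), a synthetic glucocorticoid, changed gene expression in the lung. The animals were male Sprague Dawley rats, 8 weeks old, and each library came from the lung of 1 rat, with 3 rats in each of 10 groups. Sham rats had the pancreas moved during surgery, Con rats had saline infused into the biliopancreatic duct, and SAP rats had 5.0% sodium taurocholate infused there. The DEX and Emo rats received the same taurocholate infusion and then the drug.

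Lungs were collected at 6 or 24 hours, which gave the groups Sham-6h, Con-6h, SAP-6h, DEX-6h, Emo-6h, Sham-24h, Con-24h, SAP-24h, DEX-24h and Emo-24h. DEX was injected intravenously at 10 mg/kg and emodin was given into the stomach, both at 2 and 12 hours after surgery, so the rats of the 6 hour groups had received only the first dose. Rats outside a drug group received the vehicle of that drug. The emodin dose stood at 40 mg/kg in the protocol and at 10 mg/kg in the sample descriptions. The lungs had been flushed with saline through the pulmonary artery, and the samples were whole tissue, so fewer cells of a type and less RNA per cell cannot be told apart in any value below.

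The libraries held 16813949 to 34692306 reads on genes. In the paper's mapping summary, the share of uniquely mapped reads was higher in every Sham and Con library than in every SAP, DEX and Emo library. In comparisons with Sham or Con this difference cannot be told apart from the taurocholate infusion. Defining genes of lung epithelium were abundant in all 30 libraries, with Sftpc of alveolar type 2 cells between 12700 and 30200 FPKM and Scgb1a1 of club cells between 16300 and 46700 FPKM. Replicate 1 of SAP-24h stood farthest from the mean of its group (root mean square distance of 0.372 on the log2 scale, against 0.206 to 0.344 in the other libraries). Replicate 3 of DEX-24h did not stand apart over all genes (0.229) but held the highest Areg, Hbegf and Nrg1 of all libraries. For many of the called and near-threshold genes, changes are also given without these libraries.

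EGF family ligands are made as transmembrane precursors that metalloproteases such as ADAM17 cut from the cell surface, and the freed ligand makes receptors pair and phosphorylate each other. Areg, Tgfa, Ereg, Hbegf and Btc bind EGFR, Ereg, Hbegf and Btc also bind ERBB4, and Nrg1 binds ERBB3 and ERBB4. ERBB2 has no known ligand of its own and pairs with the other receptors, and ERBB3 has little kinase activity and signals through its partner. In the lung the pathway is known for repair of the alveolar and airway epithelium after injury, and Areg is also made by immune cells during tissue repair.

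Among the receptors, Erbb3 was by far the most abundant, with a median of 20.4 FPKM over the 30 libraries (lowest 9.85, highest 41.4). Erbb2 had a median of 4.41 FPKM and Egfr one of 0.91 FPKM. The ligands fell into an abundant set, Hbegf at a median of 6.22, Tgfa at 4.58 and Areg at 3.17 FPKM, and a scarce set, Nrg1 at 0.725, Ereg at 0.275 and Btc at 0.27 FPKM. Depth limited Btc, with 7 to 47 reads per library, and Ereg, with 4 to 123, whereas Erbb3 had 1622 to 9424. Nrg1 of the scarce set had 62 to 528 reads and Areg of the abundant set 46 to 1259.

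The members also differed in how much they varied. Over all libraries the coefficient of variation was 126% for Areg, 91.5% for Ereg and 55.9% for Nrg1, compared with 39.8% for Btc, 36.6% for Hbegf, 34.3% for Tgfa, 32.9% for Erbb3, 26.4% for Egfr and 19.7% for Erbb2. When the 10 groups were ordered by mean FPKM, DEX-24h stood highest for Areg, Ereg, Hbegf, Tgfa and Nrg1. Emo-24h stood lowest for Areg, Nrg1, Erbb2 and Erbb3. Neighbouring groups in these orders overlapped in FPKM for every member, and the gap between neighbouring means exceeded both SDs only for Btc between DEX-24h and Con-24h and for Tgfa between Emo-24h and SAP-6h.

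**Figure D1:**
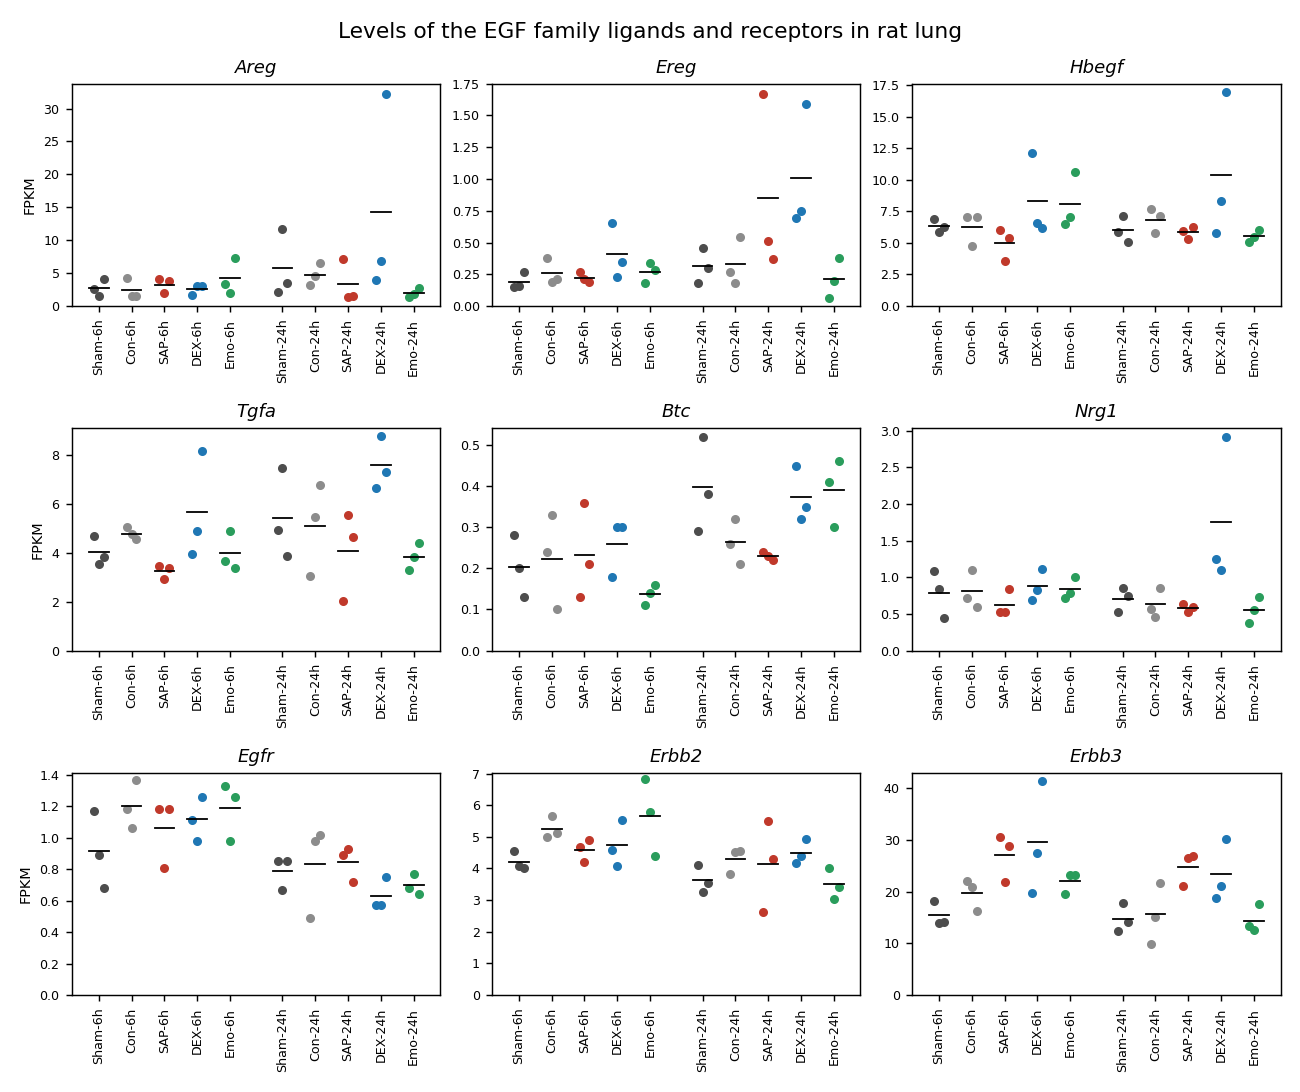
FPKM (y axis, linear, from 0) of the 9 genes in each of the 10 groups (x axis), with 1 point per rat and a line at the mean of the 3 rats. The 3 DEX-24h rats lie above the 3 Emo-24h rats for Areg, Ereg, Tgfa, Nrg1, Erbb2 and Erbb3. For Areg (32.24 FPKM), Hbegf (16.96 FPKM) and Nrg1 (2.91 FPKM), 1 DEX-24h rat lies far above the others.

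A gene was called a DEG at an adjusted p under 0.05 by edgeR's quasi-likelihood test (Benjamini-Hochberg adjustment over the whole table) together with at least a 2-fold change. The largest number of calls was in Emo-24h vs DEX-24h, where 4 of the 9 genes were down-regulated and none up-regulated, and 5.06% of all genes were called. A single gene was called in DEX-24h vs SAP-24h (all genes 3.73%), in Emo-24h vs SAP-24h (3.19%), in DEX-24h vs Sham-24h (4.15%) and in Emo-24h vs Emo-6h (9.41%). In DEX-24h vs DEX-6h 2 genes were called (7.14%). With 9 members, a count of 1 or 2 was read as a result on that gene and not on the family.

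Both drug groups received taurocholate, so Emo-24h vs DEX-24h compared the drugs with the injury in common, each at its own dose and route. Areg, Ereg, Nrg1 and Tgfa were lower in Emo-24h than in DEX-24h, by 2.06-fold (Tgfa) to 7.45-fold (Areg). For these 4 ligands every DEX-24h rat was above every Emo-24h rat. The same held for Erbb2 and Erbb3, so this separation does not set the called ligands apart. The share of all genes that separate in this way was not counted. Hbegf, Btc and the receptors were not called. The median log2 fold change was -0.97 over the 9 genes and 0.007 over all genes.

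Areg encodes amphiregulin, an EGFR ligand of epithelial and immune cells. Its level was 4.02, 6.77 and 32.24 FPKM in the 3 DEX-24h rats and 1.32, 1.9 and 2.71 FPKM in the 3 Emo-24h rats. Replicate 3 was far above the other rats, so the DEX-24h mean of 14.3 ± 15.6 FPKM (SD, n = 3) describes no single rat. The log2 fold change was -2.90 (SE 0.802, adjusted p = 0.0252).

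In SAP-24h the Areg levels were 7.18, 1.3 and 1.54 FPKM, in Sham-24h 2.08, 11.65 and 3.54 FPKM, and in Con-24h 3.26, 4.53 and 6.49 FPKM. Each of these groups overlapped DEX-24h, and a Sham-24h rat without pancreatitis was the second highest of all libraries. Against SAP-24h the change in DEX-24h was 1.95 on the log2 scale (SE 0.768, adjusted p = 0.124), which was not called. It was 0.57 without replicate 3 of DEX-24h (adjusted p = 0.72) and 3.28 without replicate 1 of SAP-24h, the highest of its group (adjusted p = 0.0319).

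Ereg encodes epiregulin, a low-affinity ligand of EGFR and ERBB4. It measured 0.69, 0.75 and 1.59 FPKM in DEX-24h, 1.67, 0.51 and 0.37 FPKM in SAP-24h, and 0.06, 0.2 and 0.38 FPKM in Emo-24h. The DEX-24h rats were all above the Emo-24h rats, while SAP-24h met Emo-24h at its lowest rat. Ereg fell in Emo-24h against DEX-24h (log2 fold change -2.24, SE 0.62, adjusted p = 0.0249) and against SAP-24h (-2.14, SE 0.62, adjusted p = 0.0365).

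The Sham-24h and Con-24h rats held Ereg at 0.18 to 0.46 FPKM and at 0.18 to 0.54 FPKM, levels that overlapped Emo-24h. In SAP-24h vs Sham-24h its log2 change was 1.61 (SE 0.601, adjusted p = 0.0782), which missed the threshold. That value rested on replicate 1 of SAP-24h, the highest Ereg library of all, and was 0.59 without it (adjusted p = 0.584), whereas without replicate 3 of SAP-24h, one of the lower rats, it was 1.99 (adjusted p = 0.0419). The change in Emo-24h vs SAP-24h was likewise -1.12 without that library (adjusted p = 0.267), and it was no longer called without replicate 1 (-1.70, adjusted p = 0.138) or replicate 2 (-2.10, adjusted p = 0.12) of Emo-24h. Without replicate 3 of Emo-24h, its highest Ereg rat, the changes were larger, at -2.89 against SAP-24h (adjusted p = 0.021) and -3.01 against DEX-24h (adjusted p = 0.0109).

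Nrg1 encodes neuregulin 1, the ligand of ERBB3 and ERBB4. Its level was 1.25, 1.1 and 2.91 FPKM in DEX-24h, against 0.53, 0.85 and 0.75 FPKM in Sham-24h, 0.38, 0.55 and 0.73 FPKM in Emo-24h and 0.63, 0.53 and 0.59 FPKM in SAP-24h. DEX-24h was the highest group in every rat, with no overlap with the other 24 hour groups named here. Nrg1 rose in DEX-24h against SAP-24h (log2 fold change 1.48, SE 0.363, adjusted p = 0.0151) and against Sham-24h (1.33, SE 0.361, adjusted p = 0.0257), and it was lower in Emo-24h than in DEX-24h (-1.70, SE 0.366, adjusted p = 0.00521).

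Tgfa encodes transforming growth factor alpha, an EGFR ligand of epithelium and macrophages. The rats of DEX-24h measured 6.64, 8.75 and 7.3 FPKM, those of Emo-24h 3.29, 3.81 and 4.41 FPKM and those of SAP-24h 2.04, 5.53 and 4.63 FPKM. DEX-24h was above both of these other groups in every rat, and its replicate 3 was the middle of its group. Sham-24h rats measured 4.93, 7.44 and 3.87 FPKM and Con-24h rats 3.04, 5.44 and 6.76 FPKM, and both groups overlapped DEX-24h. The log2 change in DEX-24h vs Sham-24h was 0.52 (SE 0.299, adjusted p = 0.359), which was not called. Tgfa was down-regulated in Emo-24h vs DEX-24h (log2 fold change -1.04, SE 0.302, adjusted p = 0.032), just past 2-fold. Its change in DEX-24h vs SAP-24h was 0.83 (SE 0.301, adjusted p = 0.0929). That change was called only without replicate 2 of SAP-24h (1.11, adjusted p = 0.046). Without replicate 1 of SAP-24h, the lowest of its group, the change was 0.54 (adjusted p = 0.336).

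Hbegf, the heparin-binding EGF-like ligand, lay just outside the call. It measured 5.8, 8.35 and 16.96 FPKM in DEX-24h and 5.06, 5.49 and 6.0 FPKM in Emo-24h, so that the lowest DEX-24h rat lay within the Emo-24h range. The log2 fold change in Emo-24h vs DEX-24h was -0.97 (SE 0.313, adjusted p = 0.0538). It was -0.46 without replicate 3 of DEX-24h, the highest rat (adjusted p = 0.461), and -1.29 without replicate 1, the lowest (adjusted p = 0.0135).

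Btc, betacellulin, stood at 0.45, 0.32 and 0.35 FPKM in DEX-24h and 0.41, 0.3 and 0.46 FPKM in Emo-24h, and the range of DEX-24h lay within that of Emo-24h. The difference between the drugs was 0 to 2 decimals on the log2 scale, with an interval of 2 SE from -0.73 to 0.72, so a change of less than that size could not be seen at 7 to 47 reads. In the RefSeq annotation of GRCr8 the protein-coding genes Btc, Areg, Ereg and Epgn follow one another, and Areg and Ereg were called in this comparison whereas Btc was not.

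Leaving out replicate 3 of DEX-24h ended all 4 calls between the drugs. Areg then had a log2 fold change of -1.54 (adjusted p = 0.287), Ereg -1.80 (adjusted p = 0.128), Nrg1 -1.16 (adjusted p = 0.0599) and Tgfa -1.10 (adjusted p = 0.0663), all still lower in Emo-24h. The Tgfa change was no smaller than with all libraries (-1.04). Over all genes the same fit, with 1 library fewer, called 409 genes instead of 807. Calls for Nrg1 were kept without any of the other 5 libraries. Those for Areg, Ereg and Tgfa were also lost without replicate 1 or replicate 2 of Emo-24h, and that for Tgfa without replicate 2 of DEX-24h (-0.91, adjusted p = 0.119). With these groups fitted alone, the calls for Nrg1 (-1.70, adjusted p = 0.0503), Areg (-2.90, adjusted p = 0.0639) and Ereg (-2.25, adjusted p = 0.0655) ended. That for Tgfa was kept (-1.05, adjusted p = 0.0159).

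**Figure D2:**
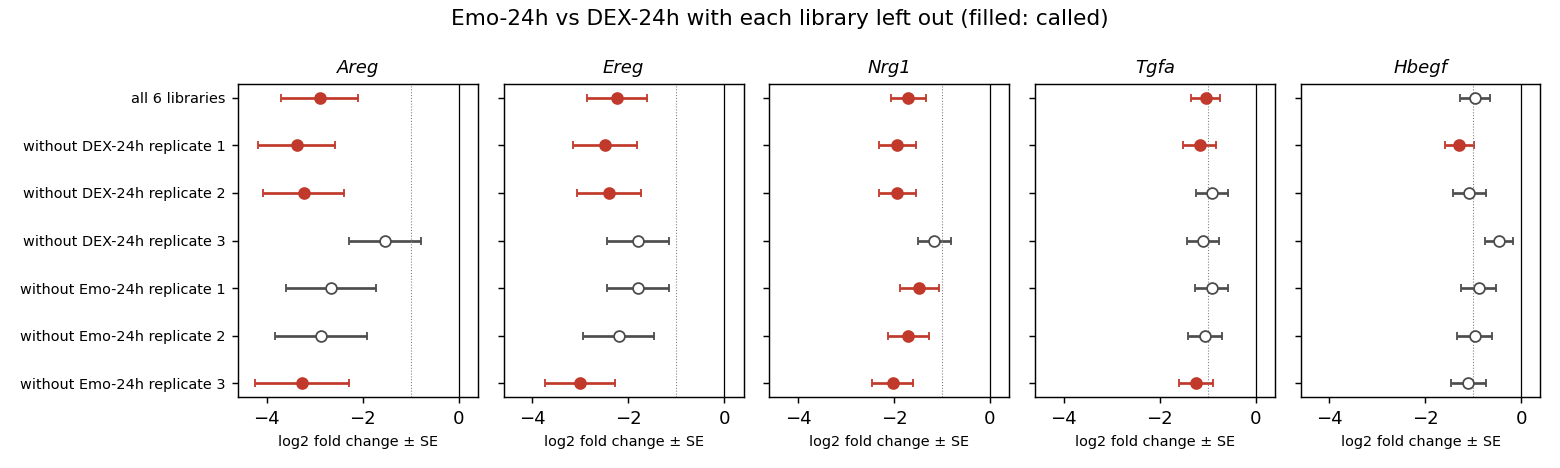
Log2 fold change in Emo-24h vs DEX-24h (x axis) ± SE for 5 ligands, with all 6 libraries and with each of the 6 left out in turn (y axis); filled points were called and the dotted line marks 2-fold. All estimates are below 0, and without replicate 3 of DEX-24h none of the 5 is called.

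The DEX-24h calls for Nrg1 also rested on that library. Without it, the log2 fold change of Nrg1 was 0.92 against SAP-24h (adjusted p = 0.134), 0.80 against Sham-24h (adjusted p = 0.251) and 0.45 against DEX-6h (adjusted p = 0.373). Against Sham-24h the call was lost as well without replicate 1 (1.16, adjusted p = 0.135) or replicate 3 (1.41, adjusted p = 0.0563) of Sham-24h. For Areg the change in DEX-24h vs Sham-24h, which was not called, went from 1.32 to -0.03 without replicate 3 of DEX-24h.

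Of the receptors, Erbb3 was higher in SAP-24h than in Sham-24h and Con-24h and lower in Emo-24h than in SAP-24h, each time by less than 2-fold. It measured 21.03, 26.57 and 26.86 FPKM in SAP-24h, against 12.43, 17.84 and 14.21 FPKM in Sham-24h and 9.85, 15.12 and 21.76 FPKM in Con-24h. Every SAP-24h rat was above every Sham-24h rat, and 1 Con-24h rat reached into the SAP-24h range. The log2 change was 0.86 against Sham-24h (SE 0.256, adjusted p = 0.0303) and 0.80 against Con-24h (SE 0.255, adjusted p = 0.0286), so neither counted as a call. The p threshold was missed without any 1 of the 3 SAP-24h libraries or replicates 1 or 3 of Sham-24h (adjusted p = 0.0534 to 0.109), while without replicate 2 of Sham-24h, the highest of its group, Erbb3 was called (1.04, adjusted p = 0.0394). Against Con-24h it was missed without replicates 1 or 2 of Con-24h or 2 or 3 of SAP-24h, and Erbb3 was called without replicate 3 of Con-24h (1.10, adjusted p = 0.00594).

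Erbb3 in Emo-24h measured 13.26, 12.53 and 17.56 FPKM, all below SAP-24h and within the range of Sham-24h. The log2 change against SAP-24h was -0.92 (SE 0.256, adjusted p = 0.0295), and the p threshold was missed without replicates 1 or 2 of Emo-24h or 2 or 3 of SAP-24h (adjusted p = 0.0528 to 0.119), but Erbb3 was called without replicate 3 of Emo-24h (-1.15, adjusted p = 0.0197) or replicate 1 of SAP-24h (adjusted p = 0.0492). In DEX-24h the level was 18.81, 21.08 and 30.23 FPKM, which overlapped SAP-24h (log2 change -0.17, interval of 2 SE from -0.68 to 0.33). Between the drugs the difference of -0.75 did not pass (SE 0.255, adjusted p = 0.068), and was -0.56 without replicate 3 of DEX-24h (adjusted p = 0.291), while it passed the p threshold without replicate 1 of DEX-24h (-0.92, adjusted p = 0.0474) or replicate 3 of Emo-24h (adjusted p = 0.029).

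At 6 hours Erbb3 was 30.65, 21.86 and 28.87 FPKM in SAP-6h and 18.17, 13.94 and 14.16 FPKM in Sham-6h. These groups did not overlap, but the change of 0.87 had an adjusted p of 0.133. DEX-6h held the highest mean, with rats at 19.76, 27.5 and 41.44 FPKM, and its change against Sham-6h was 0.97 (SE 0.256, adjusted p = 0.0194), just under 2-fold. Without replicate 3 of DEX-6h it was 0.69 (adjusted p = 0.139). Without replicates 2 or 3 of Sham-6h it was 0.91 and 0.93 (adjusted p = 0.0588 and 0.0584). It was called without any of the other 3 libraries (1.02 to 1.20). With these groups fitted alone, Erbb3 missed the p threshold (0.98, adjusted p = 0.0768). The same fit missed it in SAP-24h vs Sham-24h (0.87, adjusted p = 0.088) and SAP-24h vs Con-24h (0.80, adjusted p = 0.127). It was also missed in Emo-24h vs SAP-24h (-0.92, adjusted p = 0.104).

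Egfr, the receptor of 5 of the ligands, stayed between 0.49 and 1.37 FPKM in all libraries and was called in no comparison. In Emo-24h it measured 0.68, 0.77 and 0.64 FPKM and in DEX-24h 0.57, 0.57 and 0.75 FPKM, which overlapped (log2 difference 0.07, interval of 2 SE from -0.42 to 0.56). Erbb2, the shared partner receptor, measured 4.03, 3.04 and 3.43 FPKM in Emo-24h and 4.18, 4.4 and 4.93 FPKM in DEX-24h. The Erbb2 groups did not overlap, but the difference of -0.43 had an adjusted p of 0.13.

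**Figure D3:**
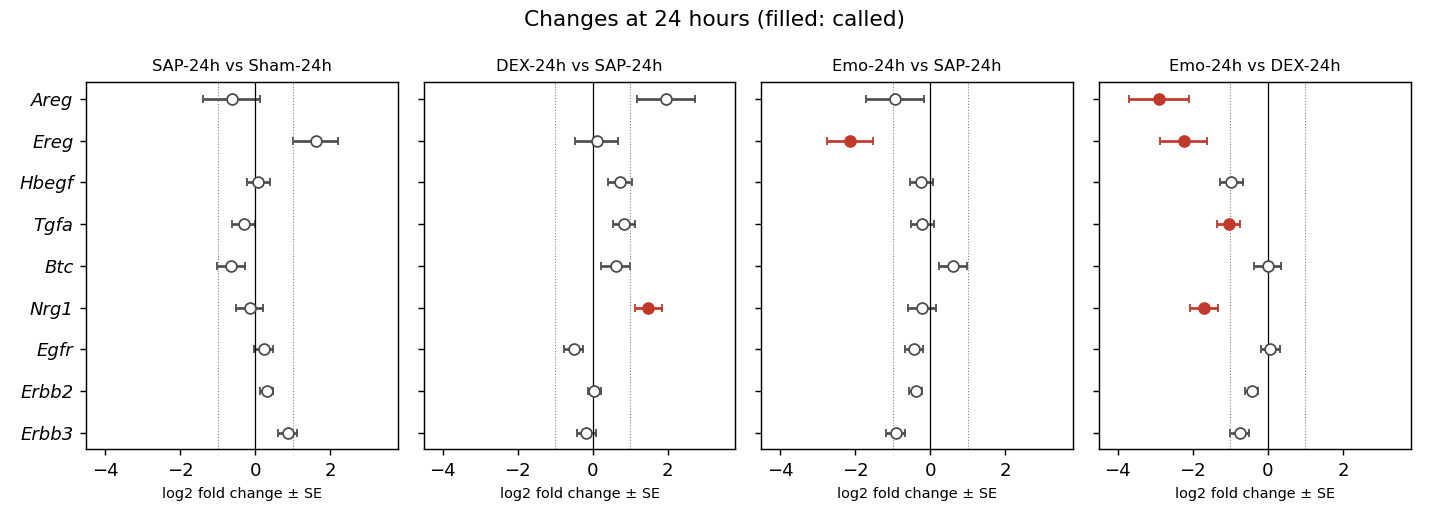
Log2 fold change (x axis) ± SE of the 9 genes (y axis) at 24 hours for Emo-24h vs DEX-24h and, separately, Emo-24h vs SAP-24h, SAP-24h vs Sham-24h and DEX-24h vs SAP-24h; filled points were called and dotted lines mark 2-fold. Calls are Nrg1 in DEX-24h vs SAP-24h, Ereg in Emo-24h vs SAP-24h, and Areg, Ereg, Tgfa and Nrg1 in Emo-24h vs DEX-24h; the panels share groups and are not independent.

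Pancreatitis alone gave no call among the 9 genes. In SAP-24h vs Sham-24h edgeR called 0 members (all genes 5.0%), with 2 at an unadjusted p under 0.05 and 1 call, Ereg, by DESeq2. In SAP-24h vs Con-24h it called 0 (all genes 6.91%), with 2 at an unadjusted p under 0.05 and 1 call, Ereg, by DESeq2. There the Ereg change was 1.56 by DESeq2 (adjusted p = 0.0479) and 1.54 by edgeR (adjusted p = 0.0704). The edgeR change was 0.51 without replicate 1 of SAP-24h (adjusted p = 0.609). Ereg was called without replicate 3 of Con-24h (2.06, adjusted p = 0.0373). It was also called without replicate 2 (1.83, adjusted p = 0.0448) or 3 (1.91, adjusted p = 0.0372) of SAP-24h. In SAP-6h vs Sham-6h and SAP-6h vs Con-6h both tools called 0 (all genes 0.22% and 0.163% by edgeR), with 1 member each at an unadjusted p under 0.05.

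The reference groups were close to each other. In Sham-6h vs Con-6h and Sham-24h vs Con-24h edgeR and DESeq2 called 0 members, 0 of them had an unadjusted p under 0.05, and edgeR called 0.0% and 1.0% of all genes. Emo-24h vs Sham-24h likewise had 0 members called by either tool and 0 at an unadjusted p under 0.05, beside 0.0% of all genes. Log2 differences of the members in that comparison ran from -1.57 (Areg, interval of 2 SE from -3.12 to -0.02) to -0.05, and all adjusted p-values were 1.0.

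At 6 hours, after a single dose of drug, no drug comparison had a called member by either tool. This held for DEX-6h vs SAP-6h (all genes 0.515%, 2 members at an unadjusted p under 0.05), Emo-6h vs SAP-6h (0.0251%, 1 member) and Emo-6h vs DEX-6h (1.41%, 1 member). It also held for DEX-6h vs Sham-6h (3.97%, 1 member) and Emo-6h vs Sham-6h (0.477%, 2 members). The members with an unadjusted p under 0.05 included Hbegf and Tgfa in DEX-6h vs SAP-6h. Hbegf was 12.12, 6.62 and 6.2 FPKM in DEX-6h and 5.99, 3.59 and 5.43 FPKM in SAP-6h, without overlap (log2 change 0.73, adjusted p = 0.319). Tgfa was 3.93, 4.89 and 8.17 FPKM in DEX-6h and 3.45, 2.94 and 3.37 FPKM in SAP-6h, also without overlap (0.78, adjusted p = 0.263).

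Over time, edgeR called members in the drug groups. In DEX-24h vs DEX-6h Areg and Nrg1 were up-regulated, and in Emo-24h vs Emo-6h Btc was up-regulated while Egfr and Erbb2 were lower by less than 2-fold. Areg was 1.63, 3.04 and 3.09 FPKM in DEX-6h, below all 3 DEX-24h rats (log2 fold change 2.48, SE 0.784, adjusted p = 0.0231), but without replicate 3 of DEX-24h the change was 1.09 (adjusted p = 0.311). The Areg call was lost as well without replicate 1 (2.22, adjusted p = 0.0892), 2 (2.61, adjusted p = 0.0566) or 3 (2.59, adjusted p = 0.0584) of DEX-6h. Nrg1 was 0.69, 0.83 and 1.11 FPKM in DEX-6h, which met the lowest DEX-24h rat (1.01, SE 0.357, adjusted p = 0.0398), and this call was lost without replicate 1 (0.86, adjusted p = 0.138) or 2 (0.97, adjusted p = 0.104) of DEX-6h.

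Btc was 0.11, 0.14 and 0.16 FPKM in Emo-6h, the lowest group for this ligand, and 0.41, 0.3 and 0.46 FPKM in Emo-24h. The groups did not overlap, and the rise (log2 fold change 1.47, SE 0.398, adjusted p = 0.0067) was called without any 1 of the 6 libraries. Btc in Sham-6h was 0.28, 0.2 and 0.13 FPKM and in Sham-24h 0.29, 0.52 and 0.38 FPKM, which did not overlap, but the change of 0.97 was not called (adjusted p = 0.154).

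Egfr fell from 1.33, 0.98 and 1.26 FPKM in Emo-6h to the 0.68, 0.77 and 0.64 FPKM of Emo-24h, without overlap (log2 change -0.82, SE 0.243, adjusted p = 0.0116). In DEX the change was of like size, from 1.11, 0.98 and 1.26 FPKM at 6 hours (-0.80, SE 0.242, adjusted p = 0.0185), again without overlap. Erbb2 fell from 6.82, 5.79 and 4.41 FPKM in Emo-6h, all above Emo-24h (-0.74, SE 0.172, adjusted p = 0.0023). These 3 changes were under 2-fold and so were not DEGs. Erbb2 passed the p threshold without any 1 of the 6 libraries, Egfr in Emo missed it without replicate 1 of Emo-6h (adjusted p = 0.0522), and Egfr in DEX missed it without replicates 1 or 2 of DEX-24h or 3 of DEX-6h (adjusted p = 0.061 to 0.0828). Con rats were also lower at 24 hours without overlap, for Egfr (log2 change -0.49, adjusted p = 0.482) and for Erbb2 (-0.24, adjusted p = 0.675). In Sham and in SAP both genes overlapped between the 2 times.

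In the groups without a drug no member was called over time by edgeR. Sham-24h vs Sham-6h (all genes 0.257%) had 1 member at an unadjusted p under 0.05, Con-24h vs Con-6h (0.00628%) had 0, and DESeq2 called 0 in both. In SAP-24h vs SAP-6h (2.42%) 1 member had an unadjusted p under 0.05. That member was Ereg, at 0.27, 0.21 and 0.19 FPKM in SAP-6h and above 0.3 FPKM in every SAP-24h rat (log2 change 2.05, SE 0.623, adjusted p = 0.051), which DESeq2 called (2.08, adjusted p = 0.0171). Without replicate 1 of SAP-24h it was 1.02 (adjusted p = 0.355).

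Whether the effect of a treatment differed between 6 and 24 hours was tested as an interaction. For SAP vs Sham the interaction called 0 members by edgeR and DESeq2 (all genes 0.0314%, 0 members at an unadjusted p under 0.05). For DEX vs SAP it called 0 by both tools (0.138%, 1 member), with Areg at 2.29 on the log2 scale (SE 1.08, adjusted p = 0.359). For Emo vs SAP it called 0 by both tools (1.68%, 3 members), with Ereg at -2.37 (SE 0.884, adjusted p = 0.11), Btc at 1.36 (SE 0.556, adjusted p = 0.141) and Erbb2 at -0.68 (SE 0.243, adjusted p = 0.0962). The different calls at 6 and 24 hours above were therefore not shown to be different effects.

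The promoters of Areg, Tgfa and Btc are shown because Areg and Tgfa were both called between the drugs and Btc, next to Areg, was not. RefSeq promoters of GRCr8 were matched for 6 of the 9 genes, not for Ereg, Nrg1 and Erbb3, and the 250 bases before the start site are printed 5′ to 3′. Capitals mark matches to the cAMP response element TGACGTCA, the TATA box TATAAA and AGAACA, part of the sequence that the glucocorticoid receptor binds. The motif TGANTCA of AP-1 was searched as well, all 4 on both strands, and no match overlapped another. Areg lies at chr14:17265642-17265891 on the minus strand, Tgfa at chr4:120175469-120175718 on the plus strand and Btc at chr14:16992418-16992667 on the plus strand.
Areg: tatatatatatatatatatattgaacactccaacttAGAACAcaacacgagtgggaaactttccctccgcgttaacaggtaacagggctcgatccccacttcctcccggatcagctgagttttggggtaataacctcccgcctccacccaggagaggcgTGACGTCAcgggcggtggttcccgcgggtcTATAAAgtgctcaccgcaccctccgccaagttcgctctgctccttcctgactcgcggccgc
Tgfa: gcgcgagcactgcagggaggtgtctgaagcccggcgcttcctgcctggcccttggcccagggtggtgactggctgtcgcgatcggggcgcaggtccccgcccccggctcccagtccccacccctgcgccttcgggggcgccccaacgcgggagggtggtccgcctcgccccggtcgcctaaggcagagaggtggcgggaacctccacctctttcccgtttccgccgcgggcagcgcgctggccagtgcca
Btc: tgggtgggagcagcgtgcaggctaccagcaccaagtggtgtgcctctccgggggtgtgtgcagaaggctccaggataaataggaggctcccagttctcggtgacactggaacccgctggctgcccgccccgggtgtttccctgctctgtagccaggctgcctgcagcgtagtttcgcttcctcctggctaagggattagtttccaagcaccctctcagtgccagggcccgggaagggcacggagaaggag
In Areg the response element starts 91 bases, the TATA box 61 bases and AGAACA 214 bases before the start site. Of 33469 promoters of this length, 1.59% hold TGACGTCA, 12.9% TATAAA, 17.5% AGAACA and 6.34% TGANTCA. No match was found in Tgfa or Btc, nor in the promoters of Egfr and Erbb2. For Hbegf, the remaining matched promoter, no result is given here. A match is a description of the letters and shows neither binding nor a cause of the levels.

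The machinery around the ligands was followed through lists of 6 other ligands and receptors (4 tested), 8 shedding genes, 20 inhibitors and feedback genes, 17 adaptors and members of the ERK cascade, and 16 genes induced by EGF receptor and ERK signalling (14 tested). The other ligands and receptors had 0 calls by edgeR and by DESeq2, and 0 genes at an unadjusted p under 0.05, in any of 4 comparisons at 24 hours (SAP vs Sham, DEX vs SAP, Emo vs SAP, Emo vs DEX). The 17 adaptors and ERK cascade genes had 0 calls by both tools in the same comparisons, in that order with 4, 4, 6 and 5 genes at an unadjusted p under 0.05. In SAP-6h vs Sham-6h and Emo-6h vs SAP-6h all lists had 0 calls by both tools, with 0 to 4 genes per list at an unadjusted p under 0.05.

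In SAP-24h vs Sham-24h the induced genes had 4 up-regulated and 1 down-regulated of 14 (all genes 5.0% called), with a list median of 0.78 on the log2 scale against -0.032 for all genes. Junb, an AP-1 transcription factor, was 395.76, 134.21 and 140.03 FPKM in SAP-24h rats, while Sham-24h rats had 52.29, 43.4 and 58.56 FPKM (log2 fold change 2.28, SE 0.393, adjusted p = 0.00143, and 1.51 without replicate 1 of SAP-24h, adjusted p = 0.0111). Plaur, the urokinase receptor, was 30.75, 30.32 and 32.53 FPKM against 9.54, 15.52 and 15.95 FPKM (1.31, SE 0.24, adjusted p = 0.00203). In both genes all SAP-24h rats were above all Sham-24h rats. Fitted with these groups alone, however, edgeR called none of the 8 pathway genes called here in SAP-24h vs Sham-24h (adjusted p = 0.0668 for Etv4 to 0.176 for Ier3), nor any of the 6 of Emo-24h vs SAP-24h, and of the 4 of DEX-24h vs SAP-24h it called Ptpn1 only.

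The transcription factor Myc was 65.24, 20.2 and 17.79 FPKM in SAP-24h rats, while Sham-24h rats had 11.94, 14.35 and 12.39 FPKM (1.58, SE 0.331, adjusted p = 0.00434). Ier3, an immediate early stress gene, was 123.64, 32.3 and 46.51 FPKM against 30.61, 27.34 and 24.97 FPKM (1.46, SE 0.32, adjusted p = 0.00586). Both were highest by far in replicate 1 of SAP-24h, and without it neither was called (Myc 0.65, adjusted p = 0.0484, under 2-fold, and Ier3 0.60, adjusted p = 0.0766). Etv4, an ETS transcription factor, went the other way, at 0.47, 0.56 and 0.7 FPKM against 2.7, 2.85 and 1.48 FPKM (-1.90, SE 0.353, adjusted p = 0.00217).

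Of the 20 inhibitors 2 were up-regulated in SAP-24h vs Sham-24h and of the 8 shedding genes 1 was, counts near the 5.0% called of all genes and so no result on these lists. These were Spry2, an inhibitor of ERK signalling (1.06, adjusted p = 0.00579), Ptpn1, a phosphatase of receptor tyrosine kinases (1.09, adjusted p = 0.00217), and Rhbdf2, a partner that ADAM17 needs to reach the cell surface (1.01, adjusted p = 0.00106), named after their values were seen. Spry2 was 63.03, 28.33 and 29.04 FPKM in SAP-24h, and without replicate 1 the change was 0.51 (adjusted p = 0.0557). For Rhbdf2 the call was lost without replicate 1 (0.90, adjusted p = 0.00714, under 2-fold) or 3 of SAP-24h, or 1 or 2 of Sham-24h, and for Ptpn1 without replicate 3 of SAP-24h or 2 of Sham-24h.

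In Emo-24h vs SAP-24h the induced genes had 3 down-regulated and 1 up-regulated of 14, beside 3.19% of all genes called (list median -0.56, all genes 0.015). Junb was 94.15, 77.14 and 86.16 FPKM in Emo-24h (-1.57, SE 0.384, adjusted p = 0.0168), Myc 13.11, 11.75 and 15.93 FPKM (-1.53, SE 0.331, adjusted p = 0.00838) and Etv4 1.62, 2.09 and 1.7 FPKM (1.50, SE 0.351, adjusted p = 0.014). These Emo-24h levels did not overlap SAP-24h for any of the 3 genes. Without replicate 1 of SAP-24h the changes were -0.80 for Junb (adjusted p = 0.15), -0.60 for Myc (adjusted p = 0.0737) and 1.40 for Etv4 (adjusted p = 0.0563), and all 3 calls were also lost without replicate 2 of Emo-24h, that of Junb without replicate 1 of Emo-24h too.

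The third of the induced genes that fell, Plaur (-1.16, adjusted p = 0.00661, named after its value was seen), stayed called without that SAP-24h library (-1.14, adjusted p = 0.0237) but not without replicate 1 of Emo-24h. Of the shedding genes, Adam12, a metalloprotease, was called up (adjusted p = 0.0304) at 0.15, 0.19 and 0.09 FPKM in Emo-24h against 0.02, 0.03 and 0.04 FPKM in SAP-24h. It was not called without replicate 1 or 2 of either group.

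Errfi1 encodes MIG6, a feedback inhibitor that binds the EGFR kinase, and it stood highest in the DEX groups. It was 90.01, 85.89 and 102.48 FPKM in DEX-24h, 86.47, 75.83 and 61.88 FPKM in SAP-24h and 26.06, 22.43 and 46.66 FPKM in Emo-24h. Emo-24h was lowest in every rat, without overlap. The change was -1.39 against SAP-24h (SE 0.343, adjusted p = 0.0179), and it was the only called inhibitor of 20 there, beside 3.19% of all genes. The call was lost without replicate 1 of SAP-24h (-1.23, adjusted p = 0.0641) or replicates 1 or 2 of Emo-24h.

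In Emo-24h vs DEX-24h the inhibitors had 2 down-regulated of 20, Errfi1 and the MAP kinase phosphatase Dusp1, a count near the 5.06% called of all genes. Errfi1 (-1.60, SE 0.345, adjusted p = 0.00521) kept its call without any 1 of the 6 libraries, including replicate 3 of DEX-24h (-1.56, adjusted p = 0.0218). Dusp1 was 418.58, 335.48 and 369.56 FPKM in DEX-24h and 138.7, 103.56 and 201.65 FPKM in Emo-24h (-1.39, SE 0.382, adjusted p = 0.0241), and its call was lost without replicates 1 or 3 of DEX-24h, or 1 or 2 of Emo-24h. At 6 hours Errfi1 was 207.34, 174.66 and 176.29 FPKM in DEX-6h, above every other library (DEX-6h vs Sham-6h 2.07, SE 0.35, adjusted p = 0.000788), and it was called there under every alternative tried. In that comparison, with 3.97% of all genes called, the lists had 3 further calls, all among the 14 induced genes: Jun, an AP-1 factor (1.03, adjusted p = 0.0224), and Plaur (1.03, adjusted p = 0.00865) were higher and Ccnd1 lower (-1.14, adjusted p = 0.0071) in DEX-6h. Of 12 alternatives, the call for Jun was lost in 6, that for Plaur in 3 (without replicates 1 or 2 of DEX-6h or 1 of Sham-6h) and that for Ccnd1 in 2 (with the groups fitted alone, adjusted p = 0.0521, and without replicate 1 of DEX-6h, -0.89, adjusted p = 0.0528). These were named after their values were seen, and Errfi1 and Dusp1 are also known to be induced by glucocorticoids.

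The induced genes and shedding genes had 1 up-regulated gene each in Emo-24h vs DEX-24h, of 14 and 8 tested, again near the 5.06% of all genes. Egr2, an early growth response factor, was 1.09, 2.18 and 1.1 FPKM in Emo-24h and 0.32, 0.48 and 0.68 FPKM in DEX-24h (1.50, SE 0.392, adjusted p = 0.0178), without overlap, and its call was lost without replicates 1 or 2 of DEX-24h or 2 of Emo-24h, or with these groups fitted alone (adjusted p = 0.0512). Adam12 was listed at 0.01, 0.0 and 0.0 FPKM in DEX-24h, too few reads for a fold change, and all 3 Emo-24h rats were higher (adjusted p = 0.000615).

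In DEX-24h vs SAP-24h, where Nrg1 rose, the 4 calls in these lists were all down, and so were 406 of the 594 genes called in all (3.73%). They were Junb (-1.36, adjusted p = 0.0304) and Egr2 (-1.45, adjusted p = 0.0252) of 14 induced genes, Ptpn1 (-1.09, adjusted p = 0.00224) of 20 inhibitors and Adam19, a metalloprotease that cuts neuregulin precursors (-1.21, adjusted p = 0.00773), of 8 shedding genes. Without replicate 1 of SAP-24h Junb was -0.57 (adjusted p = 0.357), Egr2 -0.85 (adjusted p = 0.205) and Ptpn1 was just under 2-fold (adjusted p = 0.0108). Leaving out any 1 of the 3 DEX-24h libraries also ended the call for Junb, leaving out replicate 1 or 2 of DEX-24h that for Egr2, replicate 3 of SAP-24h that for Ptpn1, and replicate 2 of SAP-24h that for Adam19. At 6 hours DEX lowered Ccnd1, cyclin D1, from 55.02, 65.25 and 64.5 FPKM in SAP-6h to 15.43, 29.95 and 26.67 FPKM (-1.36, SE 0.256, adjusted p = 0.0112), the only call of the lists in that comparison (all genes 0.515%), which was lost without replicate 1 of DEX-6h or 2 or 3 of SAP-6h.

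**Figure D4:**
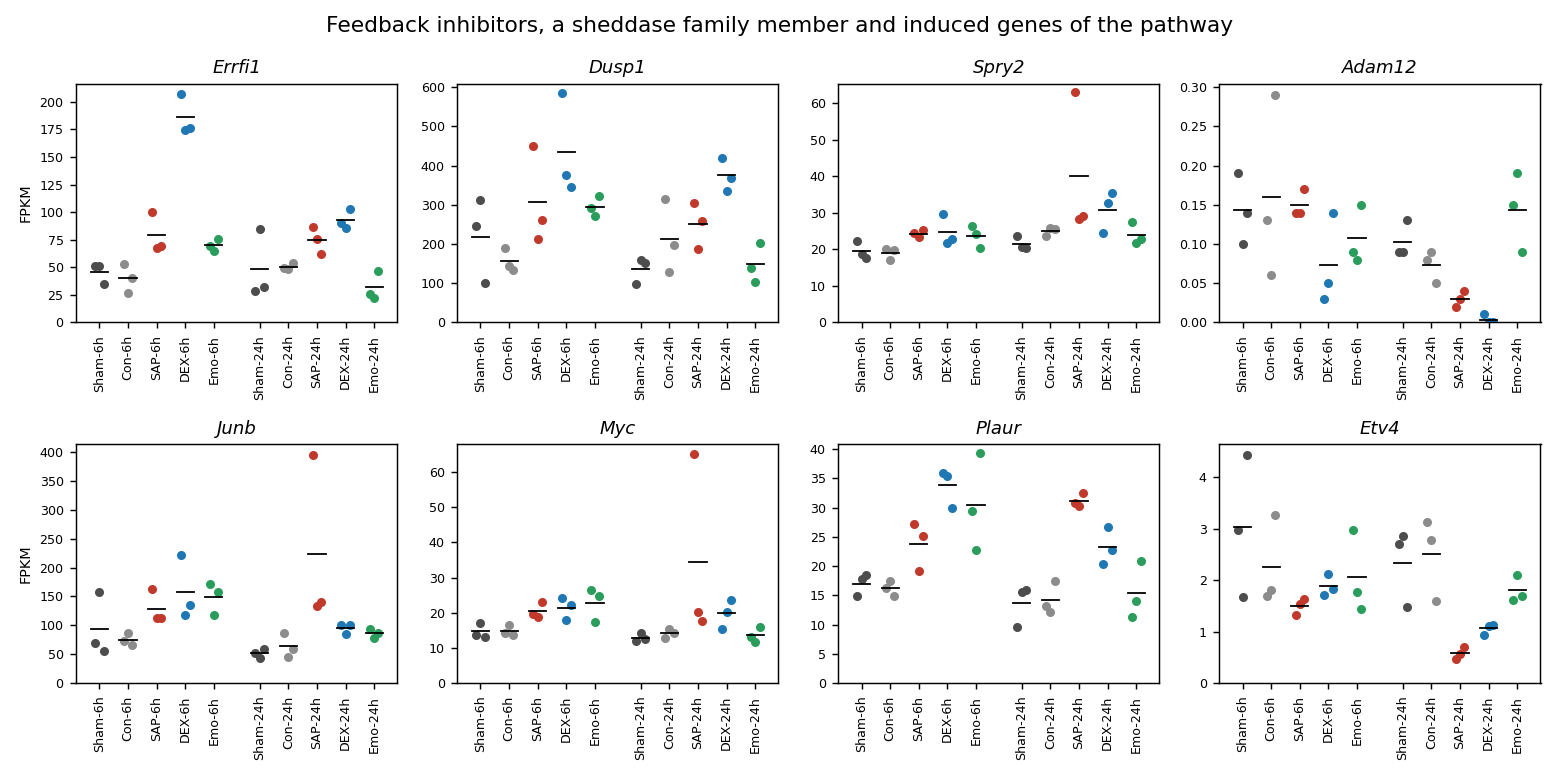
FPKM (y axis, linear, from 0) of 3 feedback inhibitors (Errfi1, Dusp1, Spry2), the metalloprotease Adam12 and 4 induced genes (Junb, Myc, Plaur, Etv4) in the 10 groups (x axis), with 1 point per rat and a line at the mean. Errfi1 and Dusp1 are lower in all Emo-24h than in all DEX-24h rats, and 1 SAP-24h rat lies far above the others for Junb (395.76 FPKM), Myc (65.24 FPKM) and Spry2 (63.03 FPKM).

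Markers of other cell types moved with the contrast between the drugs. All 6 T cell markers and all 4 B cell markers were up-regulated in Emo-24h vs DEX-24h, beside 5.06% of all genes called (609 up). Summed T cell markers were 72.5, 62.8 and 19.8 FPKM in Emo-24h and 15.2, 9.76 and 10.9 FPKM in DEX-24h, and summed B cell markers were 64.9, 40.7 and 36.8 FPKM against 8.64, 5.42 and 11.8 FPKM. These sums did not overlap, and they stood in the opposite direction to the ligands. Summed red blood cell markers ran with the ligands, at 1340, 288 and 315 FPKM in Emo-24h and 1610, 1670 and 1360 FPKM in DEX-24h, also without overlap, although none of the 4 was called by edgeR or DESeq2 or had an unadjusted p under 0.05. The sums overlapped for neutrophils (4610 to 6810 against 1600 to 4800 FPKM), macrophages and monocytes (153 to 198 against 106 to 167 FPKM), endothelium (826 to 1010 against 982 to 1130 FPKM) and fibroblasts and smooth muscle (321 to 528 against 217 to 331 FPKM).

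Of 7 glucocorticoid targets, 5 were lower in Emo-24h than in DEX-24h, beside 5.06% of all genes called (609 up and 198 down). Their sums were 383, 334 and 625 FPKM against 1230, 1090 and 1080 FPKM, in the same direction as the ligands. Dusp1 is on both lists. Of the epithelial lists, alveolar type 1 (7 tested), club (4), ciliated (6) and basal and squamous (3) had 0 calls by edgeR and DESeq2, with 2, 0, 0 and 1 genes at an unadjusted p under 0.05, and alveolar type 2 had 1 lower of 8. Of 6 mast cell and basophil markers 2 were higher, while their sum was lower (40.6 to 45.2 against 51.7 to 68.4 FPKM). Kit had the highest median of these markers (25.5 FPKM, against 10.6 FPKM or less for the others), so it weighs most in their sums. Of 5 markers of regulatory T and type 2 innate cells 1 was higher, with a sum that was higher in every Emo-24h rat (7.68, 8.15 and 4.87 FPKM) than in every DEX-24h rat (4.46, 4.78 and 4.15 FPKM).

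Replicate 3 of DEX-24h, without which the ligand calls were lost (for Tgfa with no smaller change), had the highest sum of basal and squamous markers of all 30 libraries. This sum was 171 FPKM, against 80.4 and 105 FPKM in the other DEX-24h rats and 76.0 to 89.0 FPKM in Emo-24h, made up mostly of Krt14. Krt5 of that list was at 0 in 1 library and reached no more than 1.1 FPKM. Summed heart muscle markers were 102 FPKM in that library, 87.6 and 14.9 FPKM in the other DEX-24h rats and 80.0 to 177 FPKM in Emo-24h. The part of any of these cell types in the ligand levels was not tested.

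In SAP-24h, summed neutrophil markers were 13300, 4560 and 17700 FPKM, and those of Sham-24h were 1820, 402 and 9470 FPKM, overlapping ranges. The Ereg rat of SAP-24h, replicate 1, held 13300 FPKM of these and was not the highest. Summed T cell markers were 17.9 FPKM or less in each SAP-24h rat and 47.5 FPKM or more in each Sham-24h rat. Sums were also lower in every SAP-24h rat for fibroblasts and smooth muscle (199 to 281 against 441 to 603 FPKM), basal and squamous epithelium (32.6 to 47.9 against 102 to 130 FPKM), mast cells and basophils (19.0 to 32.0 against 34.1 to 63.5 FPKM) and regulatory T and type 2 innate cells (3.89 to 5.08 against 5.22 to 8.17 FPKM), and higher for club cells (37400 to 47200 against 20000 to 36200 FPKM). Of these lists edgeR called 4 of 6 T cell, 3 of 6 mast cell, 2 of 6 fibroblast and 1 of 3 basal genes lower. Of all 15934 genes, 480 were called lower and 5.0% were called either way. Replicate 1 of SAP-24h had the lowest alveolar type 1 sum of all 30 libraries (1420 FPKM, against 2950 and 2810 FPKM in the other SAP-24h rats). Their part in the Ereg and Erbb3 levels was not tested.

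Between Emo-24h and SAP-24h, where Ereg, Erbb3, Junb and Myc differed, summed markers were higher in every Emo-24h rat for T cells (19.8 to 72.5 against at most 17.9 FPKM), B cells (36.8 to 64.9 against 20 to 35 FPKM), fibroblasts and smooth muscle (321 to 528 against 199 to 281 FPKM), basal and squamous epithelium (76.0 to 89.0 against 32.6 to 47.9 FPKM) and mast cells (40.6 to 45.2 against 19.0 to 32.0 FPKM). Glucocorticoid targets were lower (334 to 625 against 673 to 749 FPKM). Between DEX-24h and SAP-24h, where Nrg1 rose, sums were higher in every DEX-24h rat for basal and squamous epithelium (80.4 to 171 against 32.6 to 47.9 FPKM), mast cells (51.7 to 68.4 against 19.0 to 32.0 FPKM), endothelium (982 to 1130 against 909 to 960 FPKM) and glucocorticoid targets (1080 to 1230 against 673 to 749 FPKM). They were lower there for B cells (5.42 to 11.8 against 20 to 35 FPKM) and club cells (25500 to 36100 against 37400 to 47200 FPKM). Between DEX-24h and Sham-24h, where Nrg1 rose too, sums were lower without overlap for T cells (9.76 to 15.2 against 47.5 to 73.6 FPKM). So were those of B cells (5.42 to 11.8 against 20.9 to 48.8 FPKM). Fibroblast and smooth muscle sums (217 to 331 against 441 to 603 FPKM) were lower too, as were macrophage and regulatory T cell sums. Glucocorticoid targets were higher (1080 to 1230 against 403 to 890 FPKM). The part of these cell types in the Nrg1 level was not tested.

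Over time in the drug groups, where Egfr and, in Emo, Erbb2 fell, summed fibroblast and smooth muscle markers went from 890 to 1050 FPKM in Emo-6h to 321 to 528 FPKM in Emo-24h and from 520 to 920 FPKM in DEX-6h to 217 to 331 FPKM in DEX-24h. Endothelial sums went from 1150 to 1720 FPKM to 826 to 1010 FPKM in Emo and from 1400 to 1540 FPKM to 982 to 1130 FPKM in DEX. None of these ranges overlapped. Glucocorticoid targets were lower at 24 hours in both drugs and red blood cell markers in Emo, while neutrophil markers were higher in Emo and T and B cell markers lower in DEX, all without overlap. In DEX-6h vs Sham-6h, sums were higher without overlap for endothelium (1400 to 1540 against 1140 to 1150 FPKM). Ciliated cells (51.6 to 87.3 against 32.1 to 43.1 FPKM) and glucocorticoid targets (1240 to 1500 against 557 to 852 FPKM) were also higher there. Regulatory T and type 2 innate cell sums were lower (4.6 to 5.39 against 6.27 to 7.31 FPKM). The part of these cell types in the member and pathway gene levels was not tested.

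The genes whose log2(FPKM + 1) followed each called ligand most closely over the 30 libraries, out of 12404 genes with a mean of at least 1 FPKM, are given as a description. The libraries share groups, and for most ligands a few libraries carried the likeness. For Areg they included Lurap1l (Pearson r = 0.792) and Serpinb6 (0.699), and without the 2 libraries farthest from the median these fell to 0.576 and 0.44. For Ereg they included Sdc4, a syndecan (0.795), and Socs2, an inhibitor of cytokine signalling (0.779), with 0.617 and 0.717 without the 2 farthest.

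Nrg1 was most like Sestd1 (0.803), Fdx1, a mitochondrial ferredoxin (0.799), and LOC102554591 (0.778), and fell to 0.558, 0.385 and 0.655 when the 2 farthest libraries, both of DEX-24h, were left out. Tgfa had the closest companions, Tp53bp2 (0.91), Arhgap21 (0.876) and the peroxiredoxin Prdx6 (0.87), at 0.884, 0.848 and 0.833 without the 2 farthest. Btc was most like Hmgn3 (0.847), Gnpda2 (0.836) and the centriolar satellite gene Pcm1 (0.809), at 0.803, 0.794 and 0.79. Within groups, as deviations from the group means, r was 0.889 for Tgfa with Tp53bp2, 0.797 for Areg with Lurap1l and 0.596 for Btc with Hmgn3.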

How the data were processed

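Lung RNA was sequenced as directional, poly(A)-selected paired-end libraries, 1 per rat. Per the labels and the study's methods, the authors clipped reads with FASTX, aligned them with TopHat2 allowing 2 mismatches to the Ensembl v6 rat genome (rat_ensembl_v6) and kept uniquely mapped reads; the counting program is not given in the sources used here. The authors deposited raw read counts per gene and FPKM values rounded to 2 decimals. All sample columns were mapped to samples by name. Libraries held 16813949 to 34692306 reads on genes, which limits scarce genes such as Btc and Ereg.

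From the counts, genes were kept by edgeR's filterByExpr (minimum count 10, minimum total 15), scaled by TMM and fitted in 1 quasi-likelihood model of 10 groups over 30 libraries (20 residual degrees of freedom), with 21 comparisons of groups and 3 interactions. P-values were adjusted over 15934 genes by the Benjamini-Hochberg method, and a call needed an adjusted p under 0.05 and at least 2-fold. Levels are FPKM as deposited, likeness used log2(FPKM + 1), and intervals of 2 SE are given without adjustment. Each rat was a separate sample of its group, and replicates differed by more than sampling noise. The code was tested on simulated data.

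The members and gene lists were chosen with earlier results of these data known. Named were the 9 members, the pathway genes called in SAP vs Sham, DEX vs SAP or Emo vs SAP (at most 5 per comparison, by size) and the 3 genes most like each called member (1 each for Areg and Ereg is not reported here); others are said to be named after their values were seen. Symbols with 2 entries (Grb2, Tsc22d3) were represented by the one with more reads, and Ier2, Trp63 and Krt6a were not matched. Alternatives were RLE scaling, no filter, a filter of at least 1 CPM in 3 libraries, a replicate block, DESeq2, groups fitted alone, unadjusted p, no minimum fold change, a pseudocount of 0.1 for likeness, and each library left out. Promoters are RefSeq GRCr8, another build than that of the counts, so no coordinate of the count tables is used. R 4.3.3, edgeR 4.0.16, limma 3.58.1, DESeq2 1.42.0, Python 3.11.15, numpy 2.4.6, pandas 2.3.3 and matplotlib 3.10.9 were used.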

Additional observations from a re-analysis of the deposited data

Results flagged for a closer look

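None of the 9 EGF family genes passed an adjusted p of 0.05 in the interaction test. This does not show that their effects were equal at 6 and 24 hours. Among the listed pathway genes, 6 passed an adjusted p of 0.05, all in Emo vs SAP, where the log2 change was lower at 24 hours than at 6 hours. Of these, 3 were also past 2-fold (2 of 14 induced genes and 1 of 20 inhibitors), beside 1.68% of all genes. These were Plaur (-1.51, SE 0.336, adjusted p = 0.0251), Myc (-1.69, SE 0.461, adjusted p = 0.0448), the phosphatase Ptpn1 (-1.02, SE 0.285, adjusted p = 0.0464), the ERK inhibitor Spry1 (-0.96, SE 0.246, adjusted p = 0.037), Rhbdf2 (-0.90, SE 0.231, adjusted p = 0.0373) and the small GTPase Hras (-0.57, SE 0.149, adjusted p = 0.0398). Spry1 and Hras are named here because their interaction passed the threshold. With DESeq2 all 6 had an adjusted p between 0.00176 and 0.0127, whereas with the 12 libraries of these groups fitted alone edgeR gave 0.127 to 0.168. All 6 missed the threshold without replicate 2 of SAP-6h (adjusted p = 0.0957 to 0.133), replicate 1 (0.0546 to 0.0811) or 2 (0.0668 to 0.103) of Emo-24h, or replicate 1 (0.0625 to 0.105) or 3 (0.061 to 0.102) of Emo-6h. Without replicate 1 of SAP-24h only Plaur passed (adjusted p = 0.0411), the other 5 were at 0.061 to 0.0966, and Myc was -0.75. Ptpn1 was also lost without replicate 3 of Emo-24h, replicate 3 of SAP-24h or replicate 1 of SAP-6h, Hras without replicate 3 of SAP-24h, and Ptpn1, Myc and Spry1 without replicate 3 of SAP-6h. With no filter on low counts Ptpn1 was at 0.0502, and with the replicate number as a block Myc and Ptpn1 were both at 0.0584.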

How the results depend on the processing

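Counts of called members moved as follows. With each library left out in turn, the count ran from 0 to 5 in Emo-24h vs DEX-24h (4 with all libraries), 0 to 2 in Emo-24h vs SAP-24h, DEX-24h vs Sham-24h and DEX-24h vs SAP-24h (1 each), 0 to 2 in DEX-24h vs DEX-6h (2), 0 to 2 in SAP-24h vs Con-24h (0), 0 to 1 in SAP-24h vs Sham-24h, SAP-24h vs SAP-6h and DEX-6h vs Sham-6h (0 each), and stayed at 1 in Emo-24h vs Emo-6h. The 0 in Emo-24h vs DEX-24h came without replicate 3 of DEX-24h. DESeq2 called 1 member in SAP-24h vs Sham-24h, SAP-24h vs Con-24h and SAP-24h vs SAP-6h, 2 in DEX-24h vs Sham-24h and 1 in DEX-24h vs DEX-6h. Groups fitted alone gave 0 members in Emo-24h vs SAP-24h, DEX-24h vs Sham-24h and DEX-24h vs SAP-24h, and 1 in Emo-24h vs DEX-24h (Tgfa, adjusted p = 0.0159) and DEX-24h vs DEX-6h, with fewer samples for the spread. In DEX-24h vs SAP-24h that fit called 221 genes in all against 594. Unadjusted p called 1 in SAP-24h vs Sham-24h, SAP-24h vs Con-24h, SAP-24h vs SAP-6h and the DEX interaction, and 2 in DEX-24h vs SAP-24h, DEX-24h vs Sham-24h and the Emo interaction. Without a minimum fold change the count was 1 in DEX-6h vs Sham-6h, SAP-24h vs Sham-24h and SAP-24h vs Con-24h. It was 2 in Emo-24h vs SAP-24h and 3 in Emo-24h vs Emo-6h. In DEX-24h vs DEX-6h that setting added Egfr (-0.80, adjusted p = 0.0185), and unadjusted p added Ereg (1.30, unadjusted p = 0.0371). RLE scaling gave 1 in SAP-24h vs SAP-6h and DEX-24h vs DEX-6h, and the filter of 1 CPM gave 1 in SAP-24h vs SAP-6h. For these the cause was not tested. The 1 reversal was Areg in DEX-24h vs Sham-24h, at -0.03 without replicate 3 of DEX-24h (1.32 with all libraries, and up to 2.39 without replicate 2 of Sham-24h).

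Replicate numbers did not pair the samples: over 135 same-numbered pairs the correlation of deviations from the group means ran from -0.363 to 0.359 (median -0.00648), and 8 of 30 libraries correlated best with their own number. With the replicate block, 1 member instead of 2 was called in DEX-24h vs DEX-6h (Nrg1 was 0.97, under 2-fold), and no other count of members moved. The block also ended the interaction calls of Myc and Ptpn1 (adjusted p = 0.0584 each), and the call of Jun in DEX-6h vs Sham-6h (0.99, under 2-fold).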
